A study of Mus musculus with 4 samples.

Results

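Integrin subunits were read as the 10 genes Itga1, Itga2, Itga3, Itga5, Itga8, Itga11, Itgav, Itgb1, Itgb3 and Itgb5, taken by gene name from the arrays. They are 10 of 26683 genes and are measured by 26 of 41174 probes. The series asked how medium from adipose tissue-derived stem cells (ADSC medium) acts on hepatic stellate cells that receive the inflammatory cytokine IL17A. Every group used IMS/N, a stellate cell line from normal 129/Sv mouse liver that was immortalized with SV40 virus. The stem cells came from inguinal fat of male C57BL/6J mice aged 8 to 10 weeks. Total RNA was hybridised to 1-colour Agilent mouse arrays, with 1 array per group.

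The 4 groups were IMS/N cells with recombinant murine IL17A plus ADSC medium, IMS/N cells with IL17A, IMS/N cells with ADSC medium, and untreated IMS/N cells. The doses and times of IL17A and of the medium are not given in the sources used here. With 1 array per group no difference has a replicate check, so "higher" and "lower" describe pairs of arrays. Slide 1 held the arrays of IL17A alone and of untreated cells, and slide 2 held the pair with medium, so the 2 IL17A differences lie within a slide, and medium and slide cannot be told apart. In these bulk RNA samples, fewer cells of a kind and less RNA per cell cannot be told apart.

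Integrins are membrane receptors made of an alpha and a beta chain that hold cells to the matrix and pass signals in both directions. The alpha chain largely sets the ligand. Alpha1, alpha2 and alpha11 pair with beta1 to bind collagens, alpha3 with beta1 to bind laminins, and alpha5, alpha8 and alphav bind ligands with an Arg-Gly-Asp (RGD) motif, among them fibronectin and the latent form of TGF-beta. In stellate cells, alphav and alpha8 integrins are known for releasing active TGF-beta in fibrosis, and alpha11 for the collagen contact of myofibroblasts.

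The share of the 43379 non-control spots well above background lay between 58.1% and 60.5% on the 4 arrays, and none was saturated. Il6, a standard IL-17 target, was at log2 levels of 10.47 with IL17A plus medium and 11.80 with IL17A, against 4.99 with medium and 5.04 in untreated cells, so the IL17A labels show in the data. Of 13 stellate cell markers, 6 were above background on all 4 arrays, among them Acta2, Pdgfrb and Col1a1. Reln, Hand2 and Lum were at background on all 4, and Lrat was above it with IL17A plus medium alone. The 5 hepatocyte markers with a probe, the macrophage genes Adgre1 and Clec4f and the endothelial genes Pecam1 and Cdh5 were at background everywhere. Of 8 macrophage and leukocyte markers, Cd68, Csf1r, Itgal and Itgb2 were above it on all 4 arrays, Cd68 at log2 levels between 5.82 and 6.46 and Csf1r between 3.15 and 4.56. Of 5 endothelial markers, Kdr and Stab2 were above it on all 4, between 3.31 and 4.03. Of 4 biliary markers, Krt19, Krt7 and Sox9 were above it on all arrays, and Epcam was above it on none. The summed signal of the stellate markers was 38165 with IL17A plus medium and 47361 with IL17A, against 50543 with medium and 76004 in untreated cells. Col1a1 and Col1a2 make up most of that sum, while Acta2 lay between 13.24 and 13.45 and Dcn was at 9.28 and 10.37 on the arrays with IL17A, against 6.19 and 6.25 without it. For all of these markers, the part in the results below was not tested.

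Of the 10 subunits, 8 were well above background on all 4 arrays by at least 1 probe. Neither Itga2 nor Itga8 was well above background on any array. The probes that decide how the members are read are shown first. The Itga11 oligo carries the differences past 2-fold, the Itgb3 pair disagreed with each other, and the Itga1 pair gave different patterns. For Itga11 and Itgb3 the first 30 of 60 bases are given, 5′ to 3′, and for Itga1 the whole oligo. Positions are on mm9, as the array files give them.
Itga11, A_51_P417720, chr9:62631667-62631726, plus strand: gtttcatctgaacaatgtcatctgttcccc
Itgb3, A_51_P237893, chr11:104528490-104528560, plus strand: tgggactctctgccattatgtttacagagg
Itgb3, A_52_P553890, chr11:104531672-104531731, plus strand: ccacagcaacatcagagtctttgtccattt
Itga1, A_52_P518922, chr13:115821387-115825525, minus strand: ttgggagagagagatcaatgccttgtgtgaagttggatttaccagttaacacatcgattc
Itga1, A_52_P459929, chr13:115756765-115758419, minus strand: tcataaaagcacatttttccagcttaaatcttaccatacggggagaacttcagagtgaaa
The 60 bases of the first Itga1 oligo map across 4139 bases of the genome and those of the second across 1655, so each crosses an intron.

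Signals below are the authors' background-subtracted values of the array, which were not normalized between arrays. Log2 levels and log2 differences are after quantile normalization, as the series design text states for the study. A gene is read by its brightest probe unless another is named, and probes of different sequence are not set against each other. The technical SD of a log2 difference, from replicated spots within an array, was 0.29 below a log2 level of 5, 0.14 between 5 and 7, and 0.086 above 7. Spread between cultures is not part of it.

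**Figure D1:**
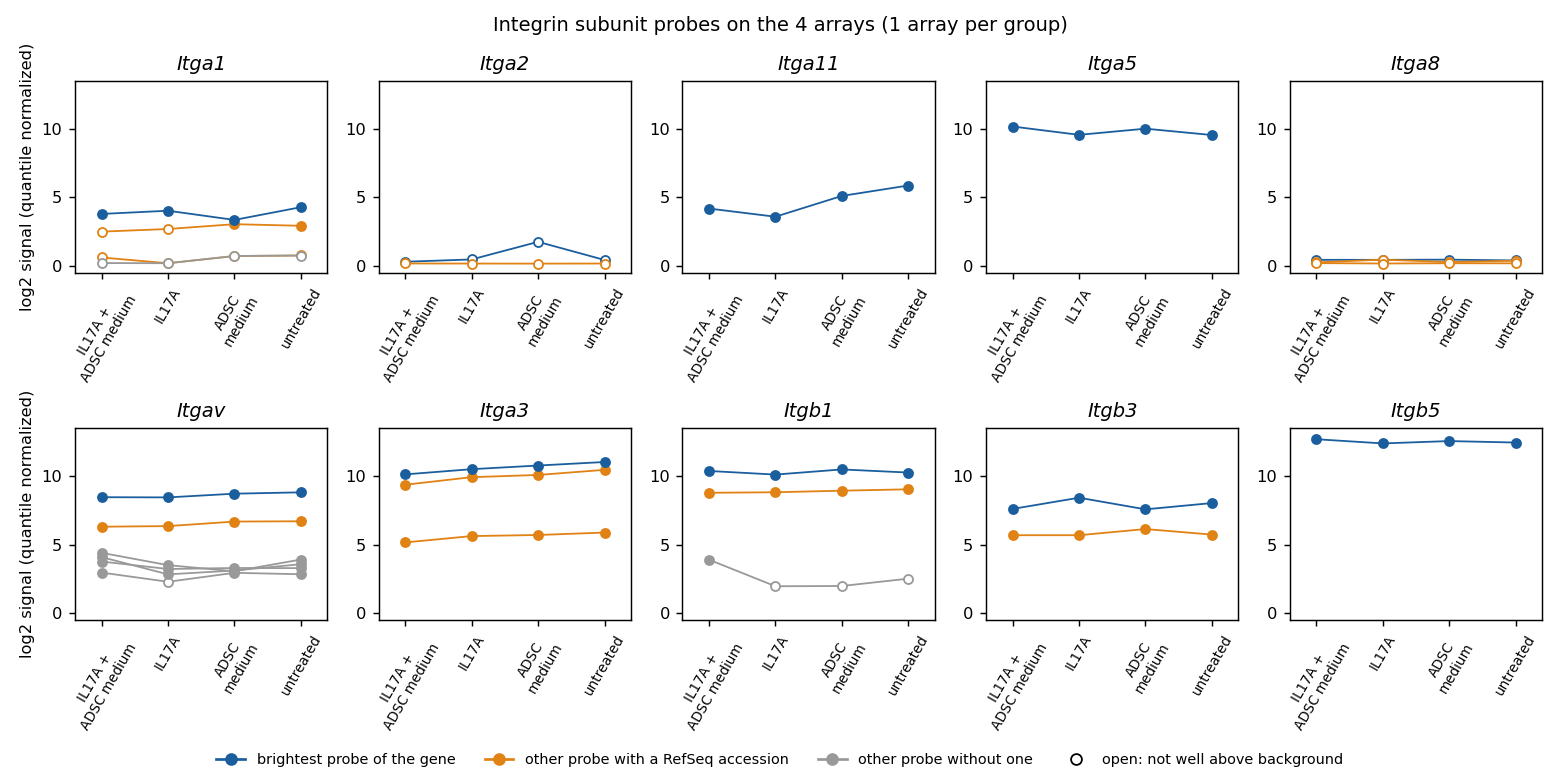
Quantile-normalized log2 signal of all 26 probes of the 10 integrin subunits, 1 panel per gene, on the arrays with IL17A plus ADSC medium, IL17A, ADSC medium and no treatment. Blue is the brightest probe of a gene, orange another probe with a RefSeq accession, grey one without; open circles were not well above background. Itga11 is at 4.19 and 3.59 on the IL17A arrays and 5.11 and 5.87 on the arrays without it, while Itga2 and Itga8 stay near 0 or open throughout.

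Among the collagen receptors, Itga11, the alpha11 chain of myofibroblasts, had the largest difference of any member. Its single probe gave signals of 19.6 with IL17A plus medium, 10.8 with IL17A, 31.9 with medium and 64.3 in untreated cells. Both arrays with IL17A lay below both without it, and IL17A alone was the lowest. The log2 difference of IL17A from untreated was -2.28, a 4.85-fold lower level, and 1.59% of 15869 measured genes lay lower. Within ADSC medium the IL17A difference was -0.92, or 1.89-fold lower, with 3.12% of genes lower. Medium alone was -0.76 from untreated, and medium added to IL17A was 0.60 above IL17A alone, a difference of 0.01 with normexp background correction. The combined treatment was -1.68 from untreated, or 3.21-fold lower.

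Each of these differences was more than 2 technical SDs in size (0.29 at this level). The IL17A difference was 1.36 smaller in size with medium than without it, past the 1 on the log2 scale that 5.26% of 14480 genes reached. With normexp, which raises dim signals by an offset of 50, the Itga11 difference of IL17A from untreated was -0.67. The IL17A difference within medium was then -0.25, inside the technical SD of 0.29. In the limma fit with additive IL17A and medium terms, the IL17A effect was -1.60 ± 0.38 (SE), with an adjusted p of 0.0618 over 15472 genes. That adjusted p ranged from 0.0106 with median scaling to 0.415 over the alternatives. This fit has 1 residual degree of freedom per gene, which is the difference between the 2 IL17A differences, and it shares its spread across genes. With eBayes without a trend it called no gene for either term, although 1852 genes had an unadjusted p under 0.05 for IL17A and 3340 for medium.

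Itga1, the alpha1 chain of a collagen and laminin receptor, gave signals of 15.1 with IL17A plus medium, 14.9 with IL17A, 9.2 with medium and 22.3 in untreated cells by its brightest probe. Medium alone was the lowest array and untreated cells the highest. The log2 difference of medium from untreated was -0.93, just inside the 2-fold limit, and the IL17A difference was 0.44 within medium and -0.26 without it. The probe A_52_P459929 did not show the medium difference. It gave 7.37 with medium and 8.80 in untreated cells, a log2 difference of 0.12 after normalization, and it was not well above background on either array with IL17A. The other 2 Itga1 probes were at background throughout, and neither term of the fit passed for the gene, with adjusted p-values of 0.950 for IL17A and 0.351 for medium. Itga2, the alpha2 chain of the second collagen receptor, had signals between 0.999 and 3.08 over its 2 probes and 4 arrays, none above background, so no fold is given.

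Of the RGD receptors, Itga5, the alpha chain of the classic fibronectin receptor, was higher on both medium arrays. Its signals were 1140.5 with IL17A plus medium, 756.3 with IL17A, 1024.2 with medium and 793.4 in untreated cells. The log2 difference of medium was 0.61 within IL17A and 0.46 without it, while IL17A differed by 0.16 within medium and by 0.01 without it. The medium effect in the fit was 0.54 ± 0.077 (SE, adjusted p = 0.00656), and the highest adjusted p over the alternatives was 0.9999, with median scaling. Without the eBayes trend it was 0.190, and the call held under the other 3 alternative fits. Since medium and slide cannot be told apart, this is a difference between slides as well.

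Itgav, the alphav chain shared by the receptors for vitronectin and latent TGF-beta, was lower on both arrays with IL17A. Its signals were 349.1 with IL17A plus medium, 342.1 with IL17A, 410.1 with medium and 474.2 in untreated cells. The log2 difference of IL17A was -0.26 within medium and -0.37 without it. The other RefSeq probe gave -0.37 and -0.35 for the same differences, and with the mean of all 6 probes the first was 0.36. The medium differences were 0.01 within IL17A and -0.10 without it, and with median scaling -0.20 and 0.13. The fit's IL17A effect was -0.31 ± 0.094 (SE) with an adjusted p of 0.124, so it did not pass.

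The other 4 Itgav probes, which carry no RefSeq accession, had signals between 4.26 and 22.5 and another pattern. All 4 were higher with IL17A plus medium than with IL17A alone, by 0.55 to 1.26 on the log2 scale. Of these, A_52_P102916 (0.67) was not well above background with IL17A alone. They lie between bases 83581760 and 83609511 of mm9 chromosome 2, and both RefSeq probes lie downstream, from bases 83643711 and 83646133. Over all genes past 2-fold for medium within IL17A, 511 were higher and 494 lower, and with RefSeq probes only 227 and 329. Itga8, the alpha8 chain of a receptor for nephronectin and latent TGF-beta, had signals between 1.02 and 1.43 over 3 probes and 4 arrays, and none was above background.

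Itga3, the alpha3 chain of a laminin receptor, was lower with IL17A by every probe. The brightest probe, at mm9 chr11:94905987-94906046, gave 1097.9 with IL17A plus medium, 1413.8 with IL17A, 1740.2 with medium and 2183.4 in untreated cells. The order was the same with its second probe, at 648.2, 951.6, 1072.8 and 1447.0 in the same order of groups, and with the remaining one, at 37.6, 46.3, 48.3 and 64.5. The log2 difference of IL17A was -0.65 within medium and -0.52 without it, and over the 3 probes it lay between -0.71 and -0.26. Medium was -0.38 when added to IL17A and -0.26 from untreated, the last at 0.01 with median scaling. The combined treatment was -0.90 from untreated, or 1.87-fold lower, and -1.09 by the second probe.

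In the fit, Itga3 fell with IL17A, by 0.59 on the log2 scale (SE 0.068, adjusted p = 0.00554), the one member of 8 that passed for IL17A. It also fell with medium, by 0.32 (SE 0.068, adjusted p = 0.0222). Of all genes tested, 3.79% passed as lower with IL17A and 8.9% as lower with medium. The IL17A call was lost with 75th percentile scaling (adjusted p = 0.0569), with the mean of probes (0.0763), with eBayes without a trend (0.332) and with median scaling (0.99998). Its effect stayed between -0.61 and -0.54 under these 4 settings. The medium call was lost under the same 4, with adjusted p-values from 0.0780 to 0.9999.

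**Figure D2:**
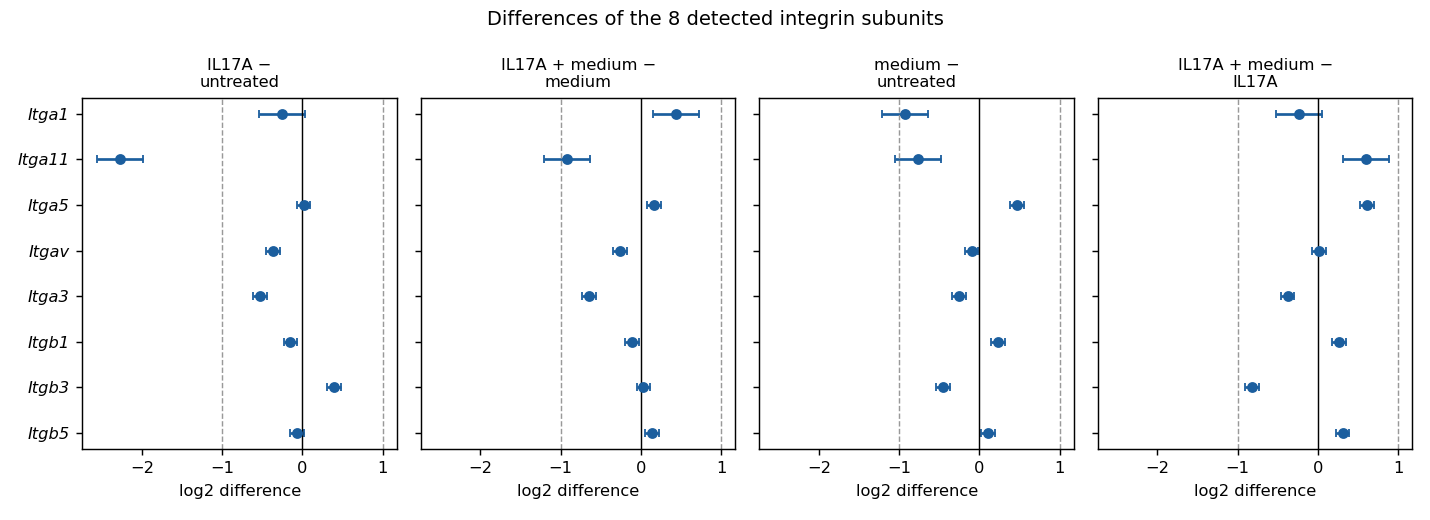
Log2 differences of the 8 detected integrin subunits for IL17A minus untreated, IL17A plus medium minus medium, medium minus untreated, and IL17A plus medium minus IL17A. Bars are 1 technical SD from replicated spots on an array and dashed lines mark 2-fold. Itga11 is the single point beyond 2-fold, at -2.28, and Itga5 lies to the right of 0 in both medium panels, at 0.46 and 0.61.

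Among the beta chains, Itgb1, the common partner of the collagen, laminin and fibronectin receptors, has a probe spotted 10 times per array. Mean signals were 1317 ± 60.6 with IL17A plus medium, 1087 ± 20.5 with IL17A, 1426 ± 78.7 with medium and 1273 ± 36.6 in untreated cells (SD over 10 spots of 1 array). Single spots lay at 1228 to 1419, 1056 to 1119, 1289 to 1520 and 1200 to 1316 on these arrays, in the same order. These signals were not normalized between arrays, so a dimmer array lowers all of its spots together. After normalization, the log2 difference of medium was 0.26 within IL17A and 0.23 without it, and that of IL17A was -0.11 within medium and -0.15 without it, the last turning to 0.10 with median scaling.

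The fit's medium effect for Itgb1 was 0.25 ± 0.067 (SE, adjusted p = 0.0471). Its second RefSeq probe gave medium differences of -0.10 and -0.04, so it did not show the medium difference of the first. Another probe, A_52_P69236, which carries no RefSeq accession, was above background with IL17A plus medium alone, at a signal of 16.2, against 3.36 with IL17A, 3.54 with medium and 6.53 in untreated cells. The second probe gave IL17A differences of -0.15 within medium and -0.21 without it. The call was lost under all 5 alternative fits, with adjusted p-values from 0.0718 to 0.9999.

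Itgb3, the beta chain that joins alphav in the vitronectin receptor, was read differently by its 2 probes. The first, A_51_P237893, gave signals of 195.6 with IL17A plus medium, 336.4 with IL17A, 182.8 with medium and 275.2 in untreated cells. It was lower on both medium arrays and highest with IL17A alone. Medium added to IL17A was -0.82 on the log2 scale, or 1.76-fold lower, and medium alone was -0.46 from untreated. The second, A_52_P553890, gave 52.6, 48.5, 65.7 and 58.5 on the same arrays in that order. Its log2 difference was -0.00 for medium added to IL17A and 0.40 for medium alone, against a technical SD of 0.14.

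The fit took the first probe, and Itgb3 then fell with medium by 0.64 (SE 0.13, adjusted p = 0.0188). With the mean of both probes the effect was -0.22, with an adjusted p of 0.506, and the call was also lost with 75th percentile scaling (0.0518), without a trend (0.203) and with median scaling (0.9999). The second probe is the one with a RefSeq accession. In the authors' deposited list of 1193 probes that were higher with IL17A and lower with IL17A plus ADSC medium, A_51_P237893 was the single probe of any member. That is 1 of 26 member probes, beside 1193 of 41174 probes on the array. None of the 26 was in the authors' deposited list of probes higher with IL17A than in untreated cells, beside 861 of 41174. Neither count is read as a result about the members.

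Itgb5, the beta chain of another vitronectin receptor with alphav, had signals of 6494.7 with IL17A plus medium, 5171.5 with IL17A, 6030.6 with medium and 5750.7 in untreated cells. Its log2 differences lay between -0.06 and 0.31. The largest was for medium added to IL17A, and it exceeded the technical SD of 0.086, while that of IL17A against untreated, -0.06, did not. The medium effect was 0.21 ± 0.065 (SE, adjusted p = 0.0719), which did not pass, and 0.34 with normexp (adjusted p = 0.0230), which did.

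Counted together, 1 of 8 detected subunits was at least 2-fold lower with IL17A than in untreated cells, Itga11, where 2.29% of all measured genes were, and none was at least 2-fold higher, where 2.17% were. Within medium, IL17A gave no member past 2-fold, against 2.86% of genes higher and 1.82% lower. Medium gave none without IL17A, against 2.45% higher and 2.97% lower, and none within it, against 3.22% and 3.11%. The combined treatment against untreated again had Itga11 alone, lower, where 4.29% of genes were lower and 3.38% higher. These 5 comparisons share arrays, so they are not independent of each other. Median scaling moved the median of all genes by more than 0.1 in 4 of them, to 0.20 for IL17A and 0.26 for medium against untreated, -0.24 for IL17A within medium and -0.15 for medium within IL17A.

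The member median of the IL17A difference was -0.04 within medium and -0.20 without it, beside -0.03 and 0.00 over all genes. For medium it was 0.14 within IL17A and -0.18 without it, beside 0.02 and 0.04 over all genes. The 2 IL17A differences share no array. Of 8 members, 6 (75%) had the same sign in both and 4 (50%), Itga11, Itga3, Itgav and Itgb1, were lower in both, of which Itga11 and Itga3 were so under every setting tried. For Itga11 the difference within medium was -0.25 with normexp, inside the technical SD of 0.29. Over 14480 genes above background on all arrays, 62.4% had the same sign and 34.5% were lower in both. In the fit, 2 of 8 members passed as higher with medium, Itga5 and Itgb1, and 2 as lower, Itga3 and Itgb3, where 9.67% of all genes passed as higher and 8.9% as lower. For IL17A none passed as higher, where 2.54% of genes did.

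**Figure D3:**
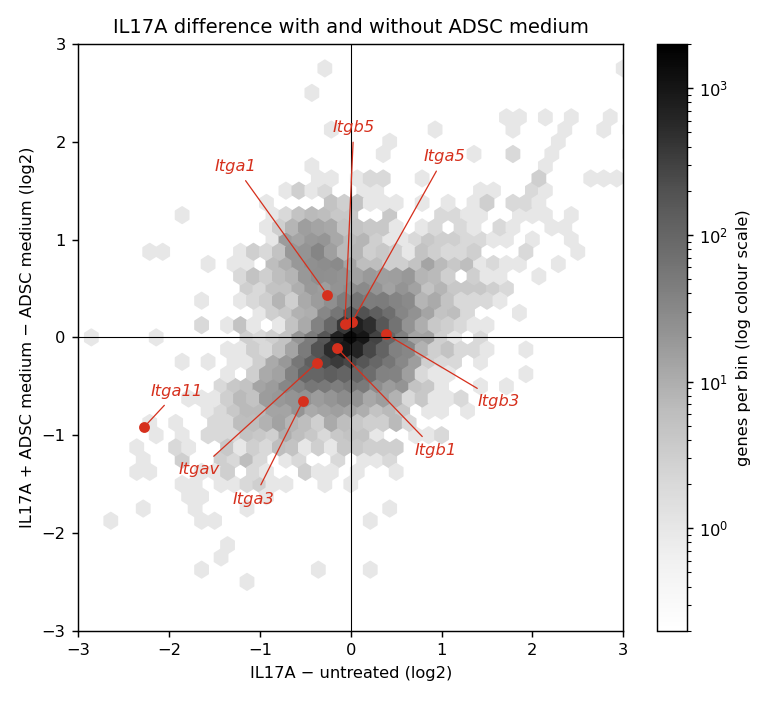
Log2 difference of IL17A within ADSC medium (vertical) against the difference without medium (horizontal) for 14480 genes above background on all 4 arrays, binned in grey, with the 8 detected subunits in red. Itga11 at (-2.28, -0.92) lies apart from the other 7, and Itga3, Itgav and Itgb1 share its quadrant. Axes end at 3, and 26 genes lie outside them.

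Itga11 and Itga3 had the 2 lowest IL17A differences among members both with and without medium, and their promoters are printed as the 250 bases before the RefSeq start (GRCm38.p6, 5′ to 3′ on the gene's strand). Capitals mark matches on either strand to the motifs searched.
Itga11, chr9:62677605-62677854, plus strand: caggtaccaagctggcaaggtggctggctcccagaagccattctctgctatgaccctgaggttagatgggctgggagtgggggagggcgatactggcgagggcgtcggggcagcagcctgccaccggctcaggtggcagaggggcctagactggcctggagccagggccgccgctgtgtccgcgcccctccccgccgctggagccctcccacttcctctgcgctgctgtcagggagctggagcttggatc
Itga3, chr11:95076715-95076964, minus strand: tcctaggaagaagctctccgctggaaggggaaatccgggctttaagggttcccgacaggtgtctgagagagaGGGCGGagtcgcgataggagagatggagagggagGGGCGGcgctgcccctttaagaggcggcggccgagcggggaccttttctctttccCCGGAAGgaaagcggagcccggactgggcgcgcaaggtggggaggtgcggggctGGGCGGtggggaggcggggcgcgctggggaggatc
The printed Itga3 window held 3 matches to the Sp1 letters GGGCGG, at bases 73, 107 and 216, and 1 to the Ets letters CCGGAAG, at base 162. A second Itga3 window, not printed, held 1 Sp1 match and no Ets match. The Itga11 window held no match to these or to AP-1 (TGANTCA), TEAD (GGAATG), SMAD (GTCTAGAC), C/EBP (TTNNGCAA), NF-kB or the CArG box. Nor did it hold the short SMAD site GTCTG, which is not put in capitals and which the printed Itga3 window held once.

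Windows were found for 9 of 10 members, 10 windows in all, since Itga3 has 2 and Itgb3 none in the table. Sp1 letters stood in 5 of 10 member windows and in 32.7% of 32851 promoter windows of the same length. Ets letters stood in 1 of 10 and 6.91%, and TEAD letters in 1 of 10, that of Itgb1, and 12.6%. C/EBP and NF-kB letters, whose factors are known to act downstream of IL-17, stood in none of the 10 and in 9.56% and 1.41% of all windows. AP-1, SMAD and CArG letters also stood in none of the 10, and in 6.75%, 0.167% and 1.47% of all windows, and the short SMAD site in 4 of 10 and 42.2%. A match or its lack describes the letters of this window alone.

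The proteins that work with these chains were read from lists chosen with earlier results of these data known. Over all genes, 2.54% rose and 3.79% fell with IL17A in the fit, and 9.67% rose and 8.9% fell with medium, and the list counts below stand beside these shares. The calls of listed genes are those of the main fit. Without a trend that fit called no gene, so every one of them was lost there. For IL17A it called 165 genes with 75th percentile scaling and 166 with median scaling, against 980. For medium it called 1210 and 234, against 2873, and medium cannot be told apart from slide. Of 28 adaptors that tie integrins to actin, such as talins, kindlins and tensins, 26 were measured for IL17A against untreated, and 23 of those 26 were below 0, with a median of -0.17, beside 49.2% of 14708 genes and a median of 0.00. With median scaling 8 of the 26 were below 0 and their median was 0.08, beside 23.1% and 0.21 over all genes, so the direction of this list turns with that scaling. One was at least 2-fold lower, Lims2, which encodes the adaptor PINCH2, with log2 levels of 5.52 with IL17A plus medium and 5.01 with IL17A, against 6.17 with medium and 6.23 in untreated cells. In the fit, 3 of 27 adaptors fell with IL17A and none rose. Tns1, a tensin at focal adhesions, fell by 0.76 (adjusted p = 0.0113). For medium, 3 of 27 rose and 4 fell, among them the talin gene Tln2 at -0.45 (adjusted p = 0.0115), and Kank1, a partner of talin, rose by 0.72 (adjusted p = 0.0473).

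Collagens, the ligands of the receptors with alpha1, alpha2 and alpha11, were lower with IL17A in 8 of 10 genes within medium, with a median of -0.32, and in 9 of 10 without it, with a median of -0.47. Over all genes, 57.1% and 49.2% were below 0. Col1a1 and Col1a2, the chains of type I collagen, had IL17A differences of -0.41 and -0.72 within medium and -0.88 and -0.90 without it. In the fit, 7 of 10 collagen genes fell with IL17A, beside 3.79% of all genes, and 8 of 10 with medium, beside 8.9%. Col3a1, of type III collagen, fell with medium by 1.38 (adjusted p = 0.0004) and Col6a3, of type VI, by 1.29 (adjusted p = 0.00471). Itga11 and type I collagen were thus both lower on both IL17A arrays.

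Among the RGD and matricellular ligands, 2 of 13 rose and 3 fell with IL17A in the fit, and 5 rose and 2 fell with medium (all genes, 2.54% and 3.79%, and 9.67% and 8.9%). Tenascin-C (Tnc), a matrix protein of wounds, rose with IL17A by 1.29 (adjusted p = 0.0385), and Ccn2, a matricellular protein induced by TGF-beta, fell by 1.04 (adjusted p = 0.00317). Periostin (Postn), a ligand of alphav integrins, had log2 levels of 7.07 with IL17A plus medium and 4.72 with IL17A, against 7.69 with medium and 6.53 in untreated cells. It rose with medium by 1.76 (adjusted p = 0.00873), and Ccn2 by 1.15 (adjusted p = 0.00123). Fbln5, an RGD protein of elastic fibres, fell with both terms, by 0.70 (adjusted p = 0.00307) for IL17A and by 0.90 (adjusted p = 0.000704) for medium.

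Laminins, the ligands of the alpha3 receptor, were mixed. With IL17A, 1 of 11 laminin and nidogen genes rose and 2 fell in the fit, beside 2.54% and 3.79% of all genes. Lamb3, a chain of laminin-332, which alpha3 beta1 binds, fell by 2.22 (adjusted p = 0.00634), with IL17A differences of -1.80 within medium and -2.63 without it. Lama3, another chain of that trimer, was at -0.93 and -0.83 in the same comparisons. Lama4, a chain of vessel and mesenchymal laminins, rose by 1.32 (adjusted p = 0.0159). Lama2 was above background on 3 arrays and not with IL17A alone.

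Of 7 genes of TGF-beta and its latent carriers, 5 rose and 1 fell with medium in the fit, beside 9.67% and 8.9% of all genes. With IL17A 1 rose and 1 fell, and 6 of 7 were below 0 against untreated, with a median of -0.31 (4 of 7 and -0.07 with median scaling). With medium, Tgfb1 rose by 0.75 (adjusted p = 0.00444) and its carrier Ltbp4 by 0.69 (adjusted p = 0.0104), while Tgfb2 fell by 1.22 (adjusted p = 0.0167). Ltbp2, a related matrix protein, rose with both terms, by 0.85 (adjusted p = 0.0031) for IL17A and 0.73 (adjusted p = 0.00269) for medium. Among membrane partners, Cav1, the caveolin that binds integrins, fell with IL17A by 0.77 (adjusted p = 0.00129) and with medium by 0.68 (adjusted p = 0.000843). The urokinase receptor gene Plaur rose with medium by 0.94 (adjusted p = 0.000334). Of 11 partners, 2 rose and 2 fell for each term, the syndecan gene Sdc1 rising with both. Over all genes, 2.54% rose and 3.79% fell with IL17A, and 9.67% and 8.9% with medium.

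**Figure D4:**
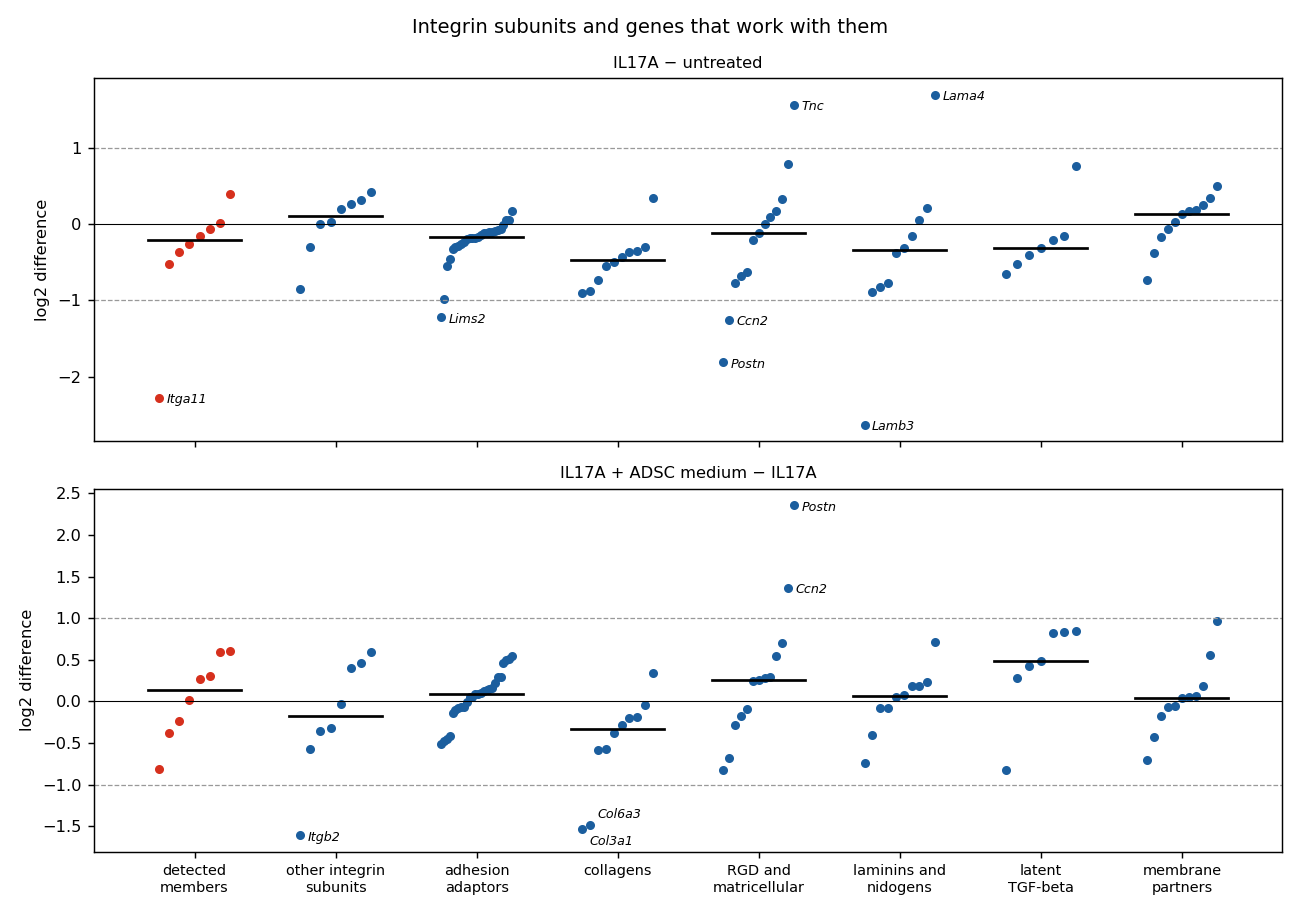
Log2 differences of the detected integrin subunits (red) and of the genes of 7 partner lists (blue) for IL17A minus untreated (top) and IL17A plus ADSC medium minus IL17A (bottom), for genes above background on both arrays. Each point is a gene, bars are list medians and dashed lines mark 2-fold, and genes past it are named. Adaptors and collagens lie mostly below 0 in the top panel, with medians of -0.17 and -0.47, and with median scaling the adaptor median turned to 0.08.

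Other integrin subunits were compared last. Of 16, 8 entered the fit. Itga6, the alpha chain of the other main laminin receptor, fell with IL17A by 0.82 (adjusted p = 0.00226), with log2 levels of 9.89 with IL17A plus medium and 9.49 with IL17A, against 10.67 with medium and 10.35 in untreated cells. It rose with medium by 0.36 (adjusted p = 0.0159), where Itga3 fell. Itgb2, the leukocyte beta chain, had log2 levels of 4.21 with IL17A plus medium and 5.82 with IL17A, against 4.26 with medium and 5.82 in untreated cells, and fell with medium by 1.58 (adjusted p = 0.00844). The leukocyte gene Ptprc was at background on 3 arrays and above it with IL17A plus medium. Of the same marker list, Cd68, Csf1r and Itgal were above it on all 4, and Itgam, Adgre1 and Clec4f on none. Neither Itga2b, the platelet alpha chain, nor Itgae passed either term.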

How the data were processed

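Total RNA of 4 IMS/N cultures was labelled with Cy3 per the labels' protocols and hybridised in 1 colour. Per the file headers, the deposited intensity values are linear Feature Extraction processed signals, background-subtracted and detrended within an array and placed on mm9. Score columns deposited beside them mark, with 0 or 1, whether a spot is well above background, saturated or an outlier. The authors' 2 deposited lists hold probe IDs. The series design text states that the authors used quantile normalization, and the submitters' processing notes name R 3.5.1.

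Control spots were left out, as were the outliers among the 43379 other spots (91 to 126 per array). Log2 signals were quantile normalized over the arrays, spots of a probe averaged, and a gene read by its brightest probe. Of the 41174 probes, 28696 were named through RefSeq (GRCm38.p6), 5761 by symbol and 163 by an older symbol. A gene was called at a log2 difference of 1 or more with the brighter array above background, and the dim side no lower than the lowest value above background on its array. limma 3.58.1 (R 4.3.3) fitted additive IL17A and medium terms (lmFit, eBayes with a trend, Benjamini-Hochberg) to genes above background on 2 or more arrays. Other steps used Python 3.11.15, pandas 2.3.3 and NumPy 2.4.6. The fit was tested on simulated data. The number of arrays limits the precision, and p-values set each additive effect against the departure from additivity, not against culture spread.

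Members and lists were chosen with earlier results of these data known. All members are named, and from each list up to 4 genes with the largest difference. The alternatives were 75th percentile and median scaling, normexp with an offset of 50, the mean of probes, other filters on dim probes, RefSeq probes only, a 1.5-fold limit and eBayes without a trend. Exon and UTR positions of the probes were not analysed here.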

Additional observations from a re-analysis of the deposited data

Results flagged for a closer look

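The listed subunits had differences of opposite sign in the 2 backgrounds, and with 1 array per group none of these was tested. The Itga1 difference of IL17A was 0.44 within medium and -0.26 without it, a gap of 0.70. It was 0.10 and -0.05 with normexp, a gap of 0.15, and 0.68 and -0.48 with 75th percentile scaling, a gap of 1.17. With the mean of probes both were below 0, at -0.18 and -0.41. For Itgb5 the same differences were 0.13 and -0.06, a gap of 0.20, and with median scaling both turned round, to -0.13 and 0.17. The Itga11 difference of medium was 0.60 within IL17A and -0.76 without it, a gap of 1.36. With normexp these were 0.01 and -0.42, a gap of 0.42, and the first is then inside the technical SD of 0.29. For Itgav the medium differences were 0.01 and -0.10, a gap of 0.11, which is near the technical SD of a gap between differences (0.12).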

How the results depend on the processing

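Of 40 member differences, 23 kept their direction under all alternatives run, among them all 5 of Itga11 and 4 of 5 of Itga3, and no called difference turned round. In 8 of the 23 the smallest value was inside the technical SD, among them medium within IL17A for Itga11 (0.0066 with normexp) and Itgb3 (-0.0009 with RefSeq probes). With 75th percentile scaling Itga1 was past 2-fold (1 member) for medium against untreated, 2 members had IL17A differences at least 1 apart (Itga1 at 1.17 and Itga11 at 1.75), and the fit called 0 members and 165 genes for IL17A and 1 and 1210 for medium, against 1 and 980, and 4 and 2873. The split of all genes for IL17A against untreated was then 263 higher and 533 lower, against 345 and 363. With median scaling Itgb3 (1 member) passed for medium within IL17A, and the fit called 166 genes for IL17A and 0 members and 234 genes for medium. With normexp no member passed in any comparison (0 for IL17A and for both treatments against untreated, and 0 with differences 1 apart). Genes called were then 161, 97, 158, 194 and 305 for IL17A, IL17A within medium, medium, medium within IL17A and both treatments, against 708, 752, 873, 1005 and 1246, and 513 in the fit for IL17A.

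With genes above background on all arrays the counts were 407, 434 and 474 for the first 3, and 756 for both treatments. With no filter they were 2065, 2061, 2297, 2491 and 2665, and Itga2, at background, was 1 member past 2-fold for IL17A within medium (lower) and 1 for medium (higher). RefSeq probes gave 454 genes for IL17A within medium, 203 higher and 251 lower, against 460 and 292 with the main probes. For medium within IL17A they gave 556, 227 higher and 329 lower, against 511 and 494. At 1.5-fold the genes were 1940, 2158, 2450, 2834 and 3207. Members past 1.5-fold were 2 for IL17A within medium (Itga3 and Itga11, lower), beside 947 of 16068 measured genes lower. Medium against untreated had 2 (Itga1 and Itga11, lower), beside 1280 of 16102 lower. Medium within IL17A had 3 (Itga5 and Itga11, higher, and Itgb3, lower), beside 1428 higher and 1406 lower of 15876. Both treatments had 3 (Itga5, higher, and Itga3 and Itga11, lower), beside 1508 higher and 1699 lower of 16241. With the mean of probes the fit called 0 members and 264 genes for IL17A and 1 and 993 for medium. Without a trend it called 0 members and 0 genes for either term, with 1852 and 3340 genes at an unadjusted p under 0.05. The cause was not tested. Itga11 and Itga1 are dim, with a technical SD of 0.29. No paired analysis was possible because each group has 1 array and so 1 replicate number, and none could be left out. The additive fit's IL17A effect already compares arrays within a slide.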
